A study of Mus musculus with 6 samples.

Results

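The genes of the mouse major histocompatibility complex (MHC) and of antigen presentation were examined in quadriceps muscle of mice carrying an altered glucocorticoid receptor gene. The members were the 45 gene symbols that begin with H2- and 10 genes of the same pathway (B2m, Cd74, Ciita, Nlrc5, Tap1, Tap2, Tapbp, Erap1, Ctss and Ifi30). The members make up 55 of the 33641 gene symbols in the expression table and 162 of its 105129 transcript rows. The 6 libraries came from 3 mice whose 2 copies of Nr3c1, the glucocorticoid receptor gene, both carry the mouse counterpart of human rs6190, and from 3 WT littermates with 2 reference alleles. All were male littermates from heterozygous parents, aged 4 months, whose muscles were frozen at about ZT4 (4 hours after lights on). The allele is present in every cell of the animal, so the muscle fibres and the resident immune, vascular and connective tissue cells all carry it. Neither the mouse strain, and with it the H2 haplotype, nor the number of founder lines is given in the sources used here.

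MHC class I molecules are made by nearly all nucleated cells and show peptides from inside the cell to CD8 T cells. Each consists of a heavy chain (H2-K1, H2-D1 and relatives) and the light chain B2m, is loaded with peptides pumped in by Tap1 and Tap2 and held by Tapbp (tapasin), and its genes are switched on by the transactivator Nlrc5. MHC class II molecules (H2-Aa with H2-Ab1, and H2-Eb1) are made mainly by dendritic cells, macrophages and B cells, and show peptides from engulfed material to CD4 T cells. Cd74, the invariant chain, escorts them, Ctss (cathepsin S) trims Cd74, H2-DMa and H2-DMb1 exchange its remnant for a peptide, and Ciita is the transactivator of the class. Interferon gamma raises both classes and glucocorticoids are widely used to dampen immune responses.

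The promoters of the genes that carry the results below are shown because members of a class share short control elements. Each sequence is the 180 bases before the RefSeq start on GRCm38.p6, read 5′ to 3′ on the gene's strand. Capitals mark 5 searched motifs on either strand: the CCAAT box (CCAAT), the X1 box core of class II promoters (AACNGATG), a nuclear factor kappa B core (GGGATTCCC), an interferon element core (TTTCACTT) and a cyclic AMP element core (TGACG).
H2-K1 (chr17:34000348-34000527, minus strand): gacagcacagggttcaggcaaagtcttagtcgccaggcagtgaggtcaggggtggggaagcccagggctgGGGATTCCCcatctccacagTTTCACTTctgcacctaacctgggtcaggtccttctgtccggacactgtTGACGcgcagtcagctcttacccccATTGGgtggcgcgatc
H2-Q6 (chr17:35424670-35424849, plus strand): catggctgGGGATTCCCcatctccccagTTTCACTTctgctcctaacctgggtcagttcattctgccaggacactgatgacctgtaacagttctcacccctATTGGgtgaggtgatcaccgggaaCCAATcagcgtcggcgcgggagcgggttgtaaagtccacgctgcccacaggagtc
H2-Q7 (chr17:35438975-35439154, plus strand): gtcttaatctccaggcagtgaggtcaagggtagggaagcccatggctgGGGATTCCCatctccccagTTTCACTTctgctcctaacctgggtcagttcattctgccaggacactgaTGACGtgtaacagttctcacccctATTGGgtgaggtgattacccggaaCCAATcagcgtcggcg
B2m (chr2:122147507-122147686, plus strand): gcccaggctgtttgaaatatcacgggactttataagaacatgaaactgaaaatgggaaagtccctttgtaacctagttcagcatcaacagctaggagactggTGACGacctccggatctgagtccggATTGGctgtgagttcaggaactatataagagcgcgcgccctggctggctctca
H2-Aa (chr17:34287824-34288003, minus strand): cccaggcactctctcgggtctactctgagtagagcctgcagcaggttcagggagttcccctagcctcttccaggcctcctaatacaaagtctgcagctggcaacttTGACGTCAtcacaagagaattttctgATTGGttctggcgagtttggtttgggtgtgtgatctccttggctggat
H2-Eb1 (chr17:34305687-34305866, plus strand): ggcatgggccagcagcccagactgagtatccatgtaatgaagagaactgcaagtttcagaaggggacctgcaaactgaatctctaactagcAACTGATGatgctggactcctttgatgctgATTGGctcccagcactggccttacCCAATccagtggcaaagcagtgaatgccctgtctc

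H2-K1, H2-Q6 and H2-Q7 each hold the nuclear factor kappa B core followed closely by the interferon core, and all 6 windows hold a CCAAT box on at least 1 strand. In the 250 bases before each start, CCAAT occurred in 32 of the 38 members with a promoter in the RefSeq table and in 33.8% of all 32851 promoters. The kappa B core occurred in 4 members (H2-D1, H2-K1, H2-Q6 and H2-Q7) and in 0.301% of all promoters, the interferon core in 9 members and 1.36%, the X1 core in 6 members and 1.98%, and TGACG in 15 members and 17.8%. Several member promoters are near-copies of each other, so these counts are not independent. A full glucocorticoid response element (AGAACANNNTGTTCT) was in 0 of the 38 and in 3 of all promoters, which says only that these letters are not in these windows.

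Of the 55 members, 48 lie on chromosome 17, between 33915899 and 37483552 (GRCm38, GENCODE M21). Levels are gene sums in TPM (transcript abundance per 1000000 transcripts of a library), which are corrected for transcript length and can be compared between genes. A total of 25 members reached 1 TPM in at least 3 libraries and were tested, 15 were listed at 0 in all 6 libraries, and 15 were detected but stayed under that limit. On the class I side, 11 of 32 molecules and 5 of 6 helpers were tested, on the class II side 5 of 12 molecules and 3 of 4 helpers, and the last was H2-Ke6, which carries the H2- prefix for its position but encodes a hydroxysteroid dehydrogenase. The most silent group was the H2-M family, which has members used in pheromone-sensing neurons: 10 of its 14 symbols were at 0 and only H2-M3 was tested.

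The libraries held an estimated 15.8 to 21.8 M fragments (M, 1000000), and WT replicate 3 stood apart from the other 5. It was the lowest library for 18 of the 25 tested members, against 55.8% of all tested genes. It lay at 52.7 on the first principal component of log2 values, which held 54.7% of the variance, against -27.8 to 3.90 for the others. Its mitochondrial share of TPM was 14.3%, against 20.9% to 33.9%. Skeletal muscle markers summed to 63076 to 106012 TPM in every library, so the tissue label fitted its markers. Several results that rest on WT replicate 3 are given with and without it.

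The level plot orders the members by class. B2m led the class I side and Cd74 the class II side, and in every library the heavy chains H2-K1 and H2-D1 (32.5 to 57.4 TPM) stood above the class II molecules (at most 17.8 TPM).

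**Figure D1:**
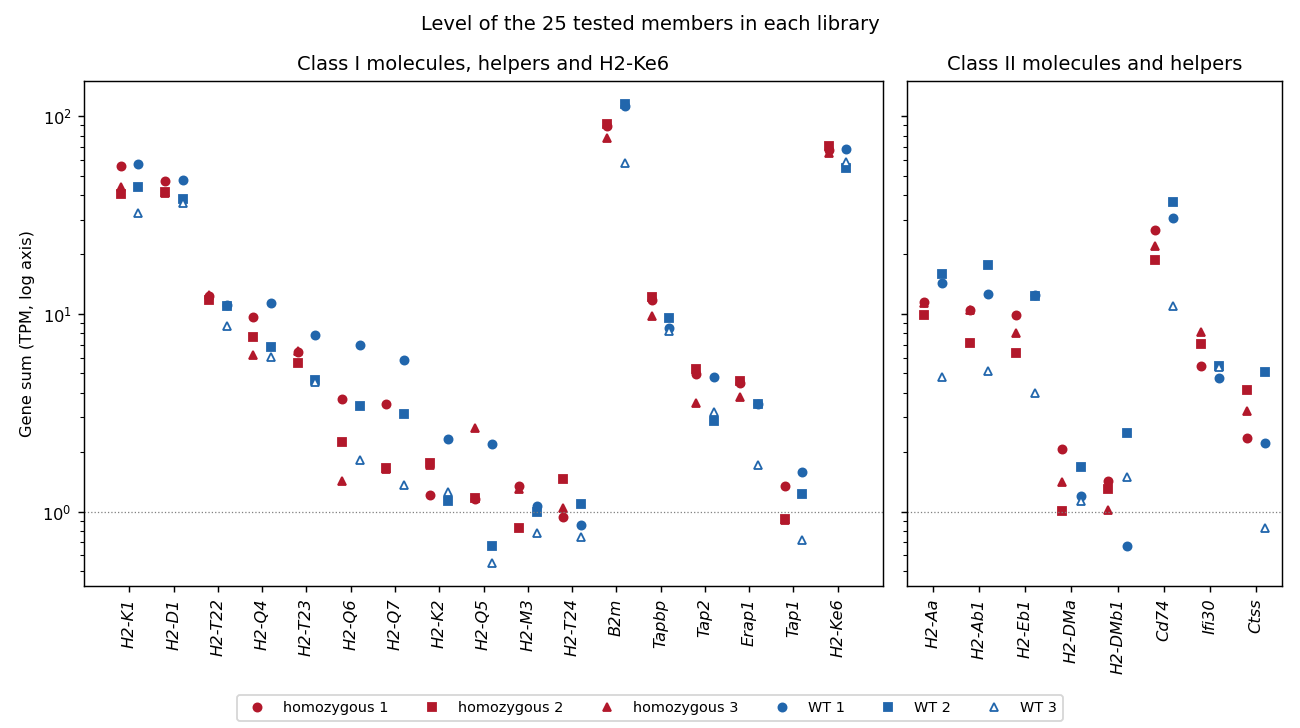
Gene sums in TPM (log axis) of the 25 tested members in each of the 6 libraries, class I genes and H2-Ke6 on the left and class II genes on the right; red marks are homozygous and blue marks WT libraries, the open triangle is WT replicate 3, and the dotted line is 1 TPM. The open triangle is the lowest mark for 18 of the 25 genes (55.8% of all tested genes), and the 4 highest class II genes show it well below the other 5 marks.

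With all 6 libraries, no member differed by genotype after adjustment (limma on log2(TPM + 1), Benjamini-Hochberg over 11099 genes): 0 of 25 members and 0 of 11099 genes, 0% of the background, had an adjusted p under 0.05. At an unadjusted p under 0.05, 1 member was higher in homozygous muscle (Tapbp) and 0 were lower, against 23.7% of all tested genes higher and 0.55% lower. The median log2 fold change (homozygous minus WT) was 0.09 over the 25 members and 0.26 over all tested genes, and 19 of the 25 lay below that all-gene median. With each library centred on its median, the all-gene median became -0.04 and the split 3.65% higher and 4.61% lower, with 0 members at that p, so signs of single fold changes are read against 0.26. For the class I side the median was 0.12 over 16 genes. For the class II side it was -0.0039 over 8 genes, and all 5 class II molecules lay below the all-gene median. The 95% limits of the fold change stayed within 1 on the log2 scale for 19 of the 25, and the widest reached -1.37 (H2-Q6) and 1.27 (Ctss), so these 3 against 3 mice leave room for changes of that size in single members.

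**Figure D2:**
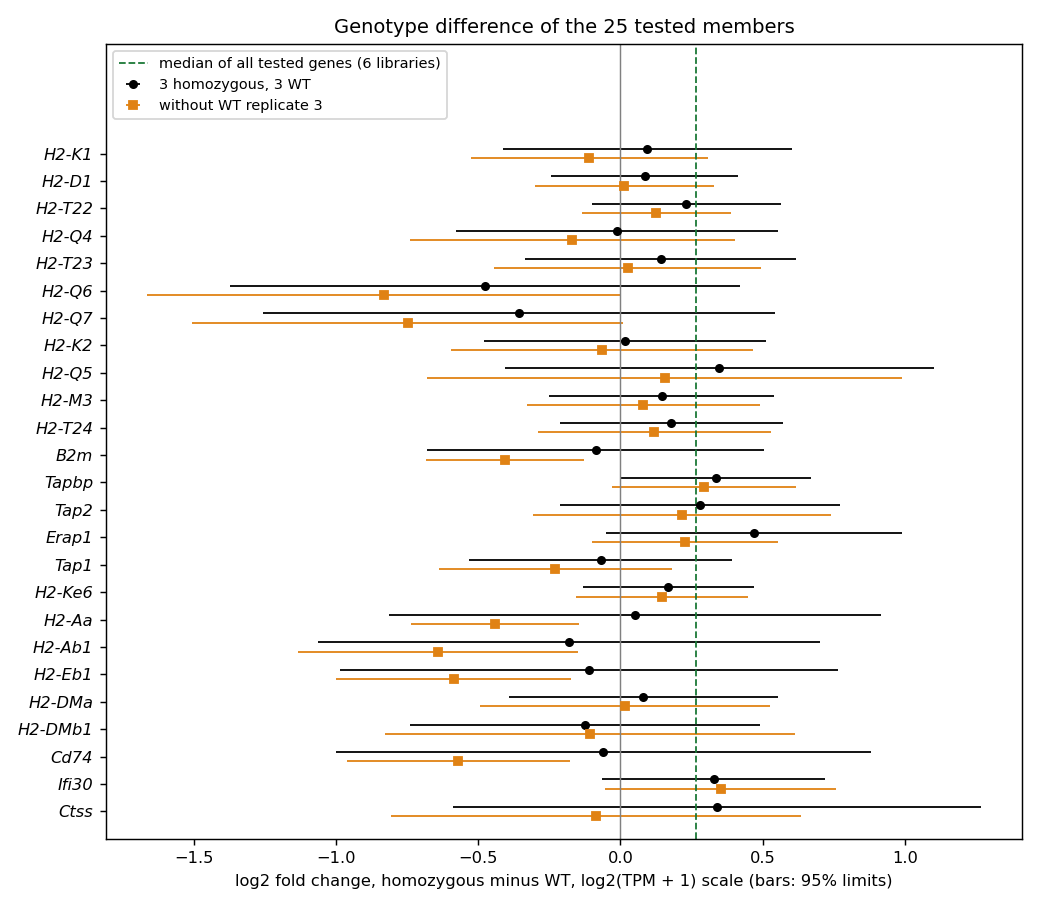
Log2 fold changes (homozygous minus WT, log2(TPM + 1) scale) with 95% limits for the 25 tested members, from all 6 libraries (black) and without WT replicate 3 (orange). All but 1 of the black intervals include 0 (Tapbp starts just above it), and without that library the intervals of B2m, H2-Aa, H2-Ab1, H2-Eb1, Cd74 and H2-Q6 lie below 0; the dashed line is the all-gene median of 0.26.

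The classical class I heavy chains had nearly equal levels in both genotypes, 46.9 ± 8.29 and 44.6 ± 12.5 TPM for H2-K1 and 43.1 ± 3.44 and 40.8 ± 5.81 TPM for H2-D1 (homozygous and WT means, SD, n = 3 each). H2-K1 (chromosome 17, 33996017 to 34000347, minus strand) measured 56.3, 40.4 and 44.1 TPM in homozygous replicates 1, 2 and 3 and 57.4, 43.9 and 32.5 TPM in WT replicates 1, 2 and 3. The groups overlapped, replicate 1 was high in both, and the log2 fold change was 0.09 (SE 0.22, 95% limits -0.41 to 0.60, adjusted p = 0.783). H2-D1 (35262730 to 35267499, plus strand) measured 47.1, 41.3 and 41.0 TPM against 47.4, 38.3 and 36.6 TPM. It had the narrower spread, with a highest library 1.30 times the lowest, against 1.77 times for H2-K1, and a log2 fold change of 0.09 (SE 0.14, 95% limits -0.24 to 0.41, adjusted p = 0.696). Centring each library on its median turned both signs, to -0.21 for H2-K1 and -0.22 for H2-D1. Without WT replicate 3 the values were -0.11 for H2-K1 and 0.01 for H2-D1.

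B2m (chromosome 2, 122147686 to 122153083), the light chain that every class I heavy chain needs, measured 89.3, 91.5 and 77.9 TPM in homozygous libraries and 113, 116 and 58.3 TPM in WT libraries. WT replicates 1 and 2 lay above and WT replicate 3 below all 3 homozygous libraries. With all 6 the log2 fold change was -0.09 (SE 0.26, adjusted p = 0.831), and without WT replicate 3 it was -0.41 (SE 0.12, unadjusted p = 0.0101, adjusted p = 0.164). The ratio of B2m to the sum of H2-K1 and H2-D1 was 0.864, 1.12 and 0.916 in homozygous libraries and 1.08, 1.41 and 0.844 in WT libraries. The highest ratio was 1.67 times the lowest, against 1.98 times for the B2m level. WT replicate 3 was the lowest library for B2m, H2-K1 and H2-D1 alike. The ratio still ran from 0.844 to 1.41, so the light chain followed the heavy chains only in part.

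Among the non-classical class I genes, H2-T22 had groups that did not overlap. It measured 12.3, 11.7 and 12.4 TPM in homozygous libraries and 11.1, 10.98 and 8.67 TPM in WT libraries, a log2 fold change of 0.23 (SE 0.14, adjusted p = 0.318), or 0.13 without WT replicate 3 and -0.07 with median centring. H2-T23, which encodes the Qa-1 ligand of natural killer receptors, measured 6.45, 5.64 and 6.47 TPM against 7.81, 4.64 and 4.53 TPM. Its groups overlapped, since WT replicate 1 was the highest library and the other WT libraries the lowest.

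The H2-Q genes varied widely between mice of a group. H2-Q6 measured 3.69, 2.26 and 1.42 TPM in homozygous libraries and 6.96, 3.43 and 1.83 TPM in WT libraries, and its highest library was 4.89 times its lowest. H2-Q7, which encodes Qa-2, measured 3.51, 1.66 and 1.64 TPM against 5.88, 3.10 and 1.36 TPM. Replicate 1 was the highest of each genotype for both genes, and the groups overlapped. The log2 fold changes were the lowest of the 25 members, -0.48 for H2-Q6 (SE 0.39, adjusted p = 0.429) and -0.36 for H2-Q7 (SE 0.39, adjusted p = 0.550). Without WT replicate 3 they were -0.83 and -0.75, and without WT replicate 1 they were -0.087 and 0.025. Their ratio ran only from 0.735 to 1.15 over the 6 libraries, so the values of the 2 genes moved together. H2-Q4 measured 9.65, 7.68 and 6.22 TPM against 11.4, 6.80 and 6.08 TPM, again with replicate 1 the highest of each genotype and with overlapping groups.

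These class I values share sequence. Of the 31-base stretches of all H2-Q6 transcripts, 51.7% also occur in transcripts of another gene, most often H2-Q4 and H2-Q7. The share was 57.8% for H2-Q5, 51.7% for H2-T22 (47.2% of its stretches with H2-T10), 39.2% for H2-Q7, 37.5% for H2-Q4, 26.8% for H2-D1 and 24.2% for H2-K1. It was 0% for B2m and at most 1.84% for H2-Aa, H2-Ab1, H2-Eb1 and Cd74. How the abundance estimate divided reads between the similar class I genes is therefore uncertain, and a mouse strain other than the reference would add to this, while B2m and the main class II genes are nearly free of it. H2-DMb1 is the class II exception, with 47.4% shared with its neighbour H2-DMb2.

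**Figure D3:**
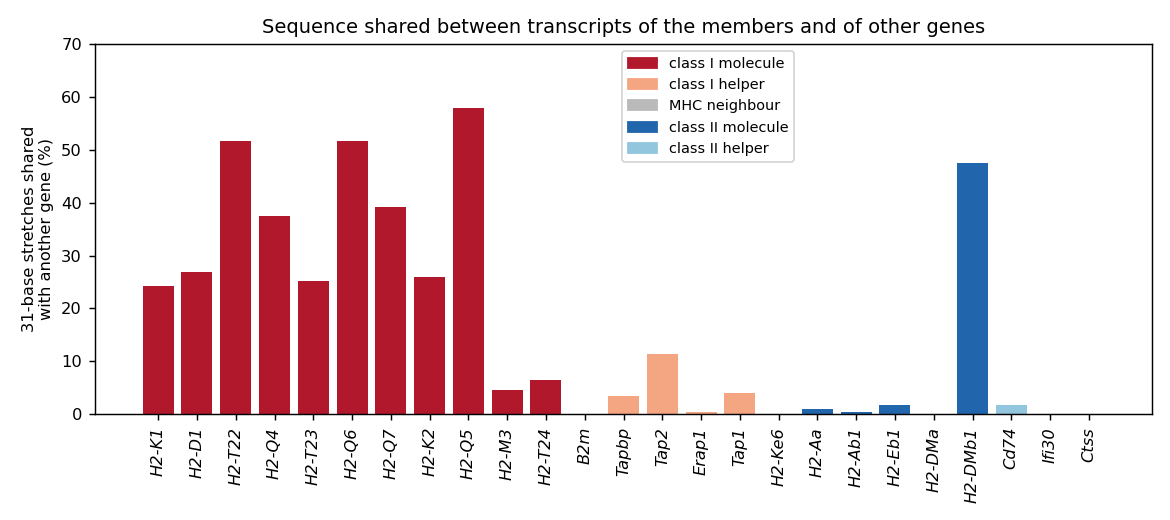
Percent of the 31-base stretches of each tested member's transcripts that also occur in transcripts of another gene (GENCODE M21), coloured by role. The class I heavy chains H2-K1 to H2-Q5 and H2-DMb1 lie between 24.2% and 57.8%, while B2m, H2-Ke6, H2-DMa, Ifi30 and Ctss are at 0%.

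The remaining class I molecules were near 1 TPM. H2-K2, H2-Q5, H2-M3 and H2-T24 had means of 1.56, 1.66, 1.16 and 1.15 TPM in homozygous and 1.57, 1.14, 0.945 and 0.894 TPM in WT libraries, with overlapping groups. H2-K2 and H2-Q5 are annotated as pseudogenes. Detected but low were H2-M6-ps (at most 0.790 TPM), H2-T10 (at most 0.472 TPM), H2-Q10 (at most 0.287 TPM), H2-Q1 (at most 0.230 TPM) and 5 others, H2-M2, H2-T-ps, H2-T3, H2-Q2 and H2-M5, none above 0.152 TPM. The 12 listed at 0 were H2-Bl, H2-Q3 and 10 H2-M symbols.

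Of the helpers of class I loading, Tapbp and Erap1 had groups that did not overlap. Tapbp (33915899 to 33929292), the tapasin that holds empty class I molecules at the peptide transporter, measured 11.8, 12.2 and 9.82 TPM against 8.44, 9.52 and 8.16 TPM. All homozygous libraries lay above the WT libraries, and the log2 fold change was 0.34 (SE 0.14, unadjusted p = 0.0495, adjusted p = 0.205), or 0.03 with median centring. Without WT replicate 3 the value for Tapbp was 0.29 (limma, unadjusted p = 0.0697). Erap1, the aminopeptidase that trims peptides in the endoplasmic reticulum, measured 4.47, 4.57 and 3.82 TPM against 3.51, 3.51 and 1.73 TPM, with a log2 fold change of 0.47 (SE 0.23, adjusted p = 0.234), or 0.17 with median centring. WT replicate 3 was far below the other libraries for Erap1, and without it the value was 0.23, or 0.0054 with centring as well.

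Tap2 measured 4.96, 5.26 and 3.53 TPM against 4.81, 2.88 and 3.18 TPM, and its partner in the peptide pump, Tap1, 1.35, 0.914 and 0.904 TPM against 1.58, 1.22 and 0.720 TPM. The groups overlapped for both. Of the stretches of Tap2, 11.3% are shared with the overlapping gene Gm15821. Nlrc5, the class I transactivator, stayed under 1 TPM in every library (0.428, 0.749 and 0.0888 TPM against 0.711, 0.489 and 0.334 TPM) and was not tested. Homozygous replicates 2 and 3 held the highest and the lowest value, from an estimated 18.9 and 7.95 fragments.

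In all, the groups of 4 members did not overlap with homozygous above (Tapbp, Erap1, H2-T22 and Ifi30), and of 0 members with homozygous below. The background for the first was 34.7% of all tested genes and for the second 0.73%, so 4 of 25 is a smaller share than that of the table as a whole.

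H2-Aa, H2-Ab1, H2-Eb1 and Cd74 showed a shared pattern across the libraries. H2-Aa (34282744 to 34287823, minus strand), the alpha chain of the I-A molecule, measured 11.4, 9.92 and 11.4 TPM in homozygous libraries and 14.3, 16.0 and 4.80 TPM in WT libraries. H2-Ab1 (34257689 to 34269419), its beta chain, measured 10.53, 7.16 and 10.53 TPM against 12.7, 17.8 and 5.14 TPM. In both genes WT replicates 1 and 2 lay above all homozygous libraries and WT replicate 3 below them all.

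H2-Eb1 (34305867 to 34316674), the beta chain of the I-E molecule, measured 9.86, 6.32 and 7.97 TPM against 12.4, 12.4 and 3.98 TPM. The symbol for its alpha chain partner, H2-Ea-ps, is annotated as a polymorphic pseudogene and was listed at 0 in every library. Cd74 (chromosome 18, 60803848 to 60812652) measured 26.6, 18.8 and 22.03 TPM against 30.5, 36.9 and 10.96 TPM. The order of the groups was again the same, with WT replicate 3 alone at the bottom.

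The 4 genes kept similar proportions while their level changed 3.12-fold to 3.46-fold between the lowest and the highest library. The ratio of Cd74 to H2-Aa ran from 1.90 to 2.33, of H2-Eb1 to H2-Aa from 0.637 to 0.866, and of H2-Ab1 to H2-Aa from 0.721 to 1.11. In contrast, the summed level of H2-Aa, H2-Ab1 and H2-Eb1 relative to H2-K1 plus H2-D1 was 0.308, 0.286 and 0.351 in homozygous libraries and 0.376, 0.561 and 0.202 in WT libraries. WT replicates 1 and 2 thus held the highest and WT replicate 3 the lowest share of class II over classical class I.

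With all 6 libraries, the log2 fold changes were 0.05 for H2-Aa (SE 0.37), -0.18 for H2-Ab1 (SE 0.38), -0.11 for H2-Eb1 (SE 0.38) and -0.06 for Cd74 (SE 0.40), with adjusted p from 0.762 to 0.934. With each library centred on its median, all 4 were below 0 by value (-0.25, -0.48, -0.41 and -0.36), so the sign of H2-Aa turned with the scaling. WT replicate 3 lay at under 0.5 of the lower of the other WT libraries for 7 of the 25 members (background 8.7%).

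Without WT replicate 3, the log2 fold changes were -0.44 for H2-Aa (SE 0.13), -0.64 for H2-Ab1 (SE 0.21), -0.59 for H2-Eb1 (SE 0.18) and -0.57 for Cd74 (SE 0.17). Their unadjusted p ran from 0.00925 to 0.0177 and their adjusted p from 0.164 to 0.177, so none passed the threshold. The 3 homozygous libraries lay below both remaining WT libraries for 5 members, these 4 and B2m, against 2.47% of all tested genes, and above both for 4 members against 42.1%. Of the 25 members, 6 were lower at an unadjusted p under 0.05 (these 5 and H2-Q6), against 0.863% of all genes, and 0 were higher, against 21.3%. With each library also centred on its median, 8 members were lower at that p, against 4.58% of all genes, and 0 were higher, against 3.88%. The smallest adjusted p of a member was then 0.423. H2-Aa, H2-Ab1, H2-Eb1 and Cd74 moved together across the libraries, as did H2-Q6 and H2-Q7, so these counts are not of independent genes. They also rest on 2 WT mice, and WT replicate 3 was left out after its values were known.

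**Figure D4:**
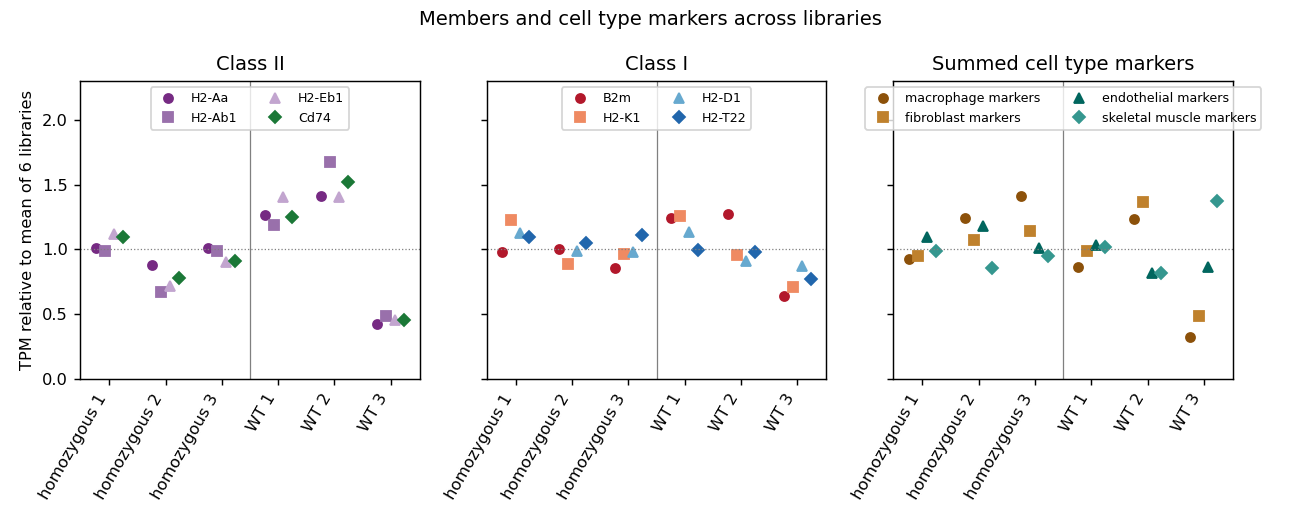
TPM of 4 class II genes, 4 class I genes and 4 summed marker lists in each library, divided by the gene's or list's own mean over the 6 libraries (dotted line at 1); the vertical line separates the genotypes. The 4 class II genes stay close together in every library and drop together in WT replicate 3. The macrophage and fibroblast sums are also lowest there and the skeletal muscle sum highest. Single fibroblast and skeletal muscle markers do not all go with their sum.

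In whole muscle, fewer cells of a type and less RNA per cell cannot be told apart, and class II RNA comes mainly from resident immune cells. The 11 macrophage markers summed to 60.2, 80.8 and 91.6 TPM in homozygous libraries and 55.9, 80.4 and 20.9 TPM in WT libraries, so WT replicate 3 was lowest there too. WT replicate 1, which had high class II values, had a lower macrophage sum than every homozygous library, but single markers did not all go with the sum. Cd68, Csf1r, C1qa, C1qb, Mrc1 and Cd163 were lower in WT replicate 1 than in homozygous replicate 1. Adgre1, Cd14, C1qc, Lyz2 and Fcgr1 were higher in WT replicate 1 than in homozygous replicate 1. The 5 leukocyte markers summed to 5.51 to 7.62 TPM in homozygous and 4.73, 9.37 and 1.99 TPM in WT libraries. For the 5 fibroblast markers the sums were 157 to 189 TPM and 164, 226 and 79.7 TPM. Of these, Pdgfra, Dcn and Lum were lowest in WT replicate 3, but Col1a1 and Col3a1 in WT replicate 1 (1.95 and 7.31 TPM). Among the skeletal muscle markers, Acta1, Ckm and Tnnt3 were highest in WT replicate 3, but Mb was lowest there (1312 TPM). The 7 dendritic cell markers summed to 2.98 to 4.16 TPM in homozygous and 1.94 to 2.95 TPM in WT libraries. Of these, only Zbtb46 reached the level of a tested gene, with means of 1.91 TPM in homozygous and 1.25 TPM in WT libraries. Batf3 went the other way, with means of 0.443 TPM in homozygous and 0.617 TPM in WT libraries. Itgax, Flt3, Xcr1 and Clec9a were at most 0.459 TPM in any library. The 8 T and NK cell markers summed to at most 1.75 TPM in any library. The 8 slow fibre markers summed to 1668, 9095 and 1984 TPM in homozygous and 1560, 1006 and 205 TPM in WT libraries, with WT replicate 3 lowest and homozygous replicate 2 highest. Their median log2 fold change was 2.49, or 1.43 without WT replicate 3, and 0 of the 8 had an unadjusted p under 0.05. The part of these cells and fibres in the class II values was not tested.

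Of the 6 B cell markers only Ighm, the heavy chain of IgM, reached the level of a tested gene. It measured 26.4, 23.2 and 54.5 TPM in homozygous and 88.4, 81.0 and 103 TPM in WT libraries. The groups did not overlap, with a log2 fold change of -1.46 (SE 0.29, unadjusted p = 0.00110, adjusted p = 0.168). WT replicate 3 was the highest library for Ighm and the lowest for H2-Aa, H2-Ab1, H2-Eb1 and Cd74.

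The class II loading genes were low and their libraries fell in another order than for H2-Aa. H2-DMa measured 2.08, 1.01 and 1.40 TPM against 1.20, 1.68 and 1.13 TPM, and H2-DMb1 1.43, 1.29 and 1.02 TPM against 0.666, 2.49 and 1.498 TPM. The groups overlapped for both, and the log2 fold changes were 0.08 (SE 0.20) and -0.12 (SE 0.27). H2-Ob (at most 0.222 TPM), H2-DMb2 (at most 0.261 TPM), H2-Oa and H2-Eb2 were detected under 1 TPM, and H2-Pa and H2-Pb were listed at 0 with H2-Ea-ps.

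Ciita, the class II transactivator, was nearly absent from the table: 0.0958, 0.111 and 0.0818 TPM in homozygous libraries and 0.0931, 0.132 and 0.0122 TPM in WT libraries. These correspond to an estimated 6.85 to 10.3 fragments in homozygous and 9.13, 11.4 and 1.14 fragments in WT libraries, too few to test. By value, Ciita was lowest in WT replicate 3, like H2-Aa.

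The 2 endosomal enzymes were also low. Ifi30, the thiol reductase that opens disulfide bonds of antigens, measured 5.46, 7.03 and 8.08 TPM in homozygous and 4.76, 5.45 and 5.41 TPM in WT libraries. All homozygous libraries lay above the WT libraries, the lowest of them only just, with a log2 fold change of 0.33 (SE 0.17, adjusted p = 0.254), or 0.03 with median centring. Ctss measured 2.35, 4.12 and 3.24 TPM against 2.23, 5.09 and 0.828 TPM, with overlapping groups and the widest spread among the genes compared in this way, 6.15 times from the lowest to the highest library. As for H2-Aa, WT replicate 2 was the highest and WT replicate 3 the lowest library for Ctss. The log2 fold change of Ctss was 0.34 (SE 0.40), and -0.087 without WT replicate 3.

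H2-Ke6, at 65.6 to 70.9 TPM in homozygous and 54.7 to 68.5 TPM in WT libraries, had overlapping groups and a log2 fold change of 0.17 (SE 0.13, adjusted p = 0.405).

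Single isoforms were tested for 37 rows of the members. None passed an adjusted p of 0.05, against 0.0425% of all 21165 tested rows, and the smallest adjusted p was 0.281. It belonged to a short H2-Aa isoform (ENSMUST00000174751.1, 826 nt). Its values were 0, 1.40e-08 and 1.16 TPM in homozygous and 2.97, 1.87 and 1.34 TPM in WT libraries, with a log2 fold change of -1.21 (SE 0.39, unadjusted p = 0.0183). It was the 1 row of the members that was lower at that unadjusted p, against 1.52% of all rows, and 0 were higher, against 14.2%. The main H2-Aa isoform, with 88.3% of the gene's TPM, had overlapping groups, at 11.4, 9.77 and 10.2 TPM against 10.9, 14.1 and 3.46 TPM.

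Other genes of the pathway, listed apart from the members, also gave no adjusted p under 0.05. Of 9 genes of peptide supply and loading, 1 was higher at an unadjusted p under 0.05 and 0 were lower: Canx, the calnexin that folds new heavy chains, at 24.6, 37.7 and 33.6 TPM against 21.6, 25.7 and 12.1 TPM. Its log2 fold change was 0.71 (unadjusted p = 0.0346), and 0.40 (unadjusted p = 0.0691) without WT replicate 3; Psme2, a proteasome activator subunit, was then the 1 gene of the list at that p. The immunoproteasome subunits Psmb8 and Psmb9 had overlapping groups, at 2.27 to 4.20 TPM and 1.54 to 3.70 TPM in homozygous and 2.46 to 4.23 TPM and 1.19 to 2.35 TPM in WT libraries.

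Of 7 genes of the complex that binds class II promoters, 2 were higher at that p and 0 lower. Rfx5, which binds the X box, measured 2.90, 5.18 and 3.66 TPM against 2.603, 2.39 and 1.32 TPM. Nfya, which binds CCAAT, measured 3.93, 6.41 and 4.13 TPM against 2.56, 2.63 and 2.15 TPM. The groups did not overlap for either gene, and the log2 fold changes were 0.66 and 0.73. Without WT replicate 3, limma gave an unadjusted p = 0.0121 for Nfya and an unadjusted p = 0.0593 for Rfx5.

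Of 5 endosomal proteases, 1 was higher (Ctsd, log2 fold change 0.57) and 0 lower. Of 22 tested interferon genes, 5 were higher, namely the receptor chains Ifngr1 (0.44), Ifngr2 (0.59) and Ifnar1 (0.49) and the factors Irf2 (0.34) and Irf9 (0.39). The 1 that was lower, Irf8, a factor of myeloid and B cells, measured 0.752, 1.17 and 1.38 TPM in homozygous and 2.20, 1.81 and 1.62 TPM in WT libraries, without overlap (log2 fold change -0.46). Among interferon targets, Iigp1 measured 4.45, 3.86 and 3.12 TPM against 6.99, 5.67 and 3.04 TPM, and Gbp2 2.16, 1.91 and 1.97 TPM against 2.41, 1.97 and 1.29 TPM, both with overlapping groups. Without WT replicate 3, 3 interferon genes were higher at that p, against 21.3% of all genes (Ifngr1, Ifngr2 and Ifnar1, without Irf2 and Irf9). Lower at that p were 2, against 0.863% (Irf8, and Iigp1 at -0.61, limma, unadjusted p = 0.00813). With median centring as well 0 were higher, against 3.88% of all genes, and 5 lower, against 4.58%. The higher genes in these lists with all 6 libraries were 1 of 9, 2 of 7, 1 of 5 and 5 of 22. The background was then 23.7% of all genes higher and 0.55% lower. With median centring of all 6 libraries, 1 of these 43 was higher at that p (in the complex that binds class II promoters), against 3.65%. Lower were 2 (among the interferon genes), against 4.61%.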

How the data were processed

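RNA-seq of poly-A RNA (a stranded kit, per the labels' protocols) was done on quadriceps of 6 mice, 3 homozygous and 3 WT, grouped by the sample labels. The authors deposited 1 table of TPM per transcript, per the file headers; the submitters' processing notes name FastQC, Trimmomatic, HISAT2, kallisto and mm10, without versions, roles or settings, and no strand setting is stated. All 6 columns matched a library by name.

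TPM were summed per gene symbol and transformed to log2(TPM + 1); a fold change on that scale understates the change of low genes. Genes reaching 1 TPM in 3 or more libraries (11099), and isoform rows chosen alike, were tested with limma 3.58.1 in R 4.3.3 (trend, robust, genotype only), with two-sided p-values adjusted by Benjamini-Hochberg over all tested genes or rows. The threshold was an adjusted p under 0.05. TPM carries no depth, so fragments were estimated from the steps between low values of transcripts of at least 1500 nt, of which 74.6% to 77.1% per library lay within 0.03 of a whole number. The fits were tested on simulated data.

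All 55 members matched 1 gene of GENCODE M21 (GRCm38), possibly not the release behind the table. Promoters came from RefSeq (GRCm38.p6; 250 bases searched). H2-Ab1, Ciita and Nlrc5 had no entry there, and the H2-D1 and H2-DMb1 windows reach into transcribed sequence of the other annotation.

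Named with library values were the main class I and class II genes, the helpers and every H2- gene with a mean of at least 1 TPM. The members, lists and tests were chosen with earlier results of these data known. The labels do not say more than that the samples are separate mice, and p-values measure the spread between 3 of them per group. Alternatives were median centring, quantile normalization, removal of a length trend, array weights, a pseudocount of 0.1, no filter, mitochondrial transcripts left out, the replicate number as a block and leaving out each library. Combinations of centring or quantile normalization with leaving out WT replicate 3 were added after seeing the data.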

Additional observations from a re-analysis of the deposited data

How the results depend on the processing

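The count of members past the adjusted threshold was 0 in all 16 alternative settings for gene sums and in the 13 run for isoform rows. The count of all genes past it was 0, but 810 with array weights (the weight of WT replicate 3 was 0.199), and 0 to 2 when 1 library was left out. Members at an unadjusted p under 0.05 numbered 1. They were 6 with array weights, 2 higher and 4 lower, against 3593 and 175 of 11099 genes. The smallest adjusted p of a member was then 0.0714 (limma). With the replicate block they were 2, 1 higher and 1 lower, against 2209 and 70 genes. They were 0 with median centring, quantile normalization, the length trend removed or mitochondrial transcripts left out. When 1 library was left out they ranged from 0 to 6. With WT replicate 3 left out they were 8 with median centring and 7 with quantile normalization, all lower. The counts of all genes were then 431 higher and 508 lower, and 499 higher and 454 lower. Isoform rows past the threshold numbered 9; they were 14 with array weights, 5 with median centring or mitochondrial transcripts left out, 4 with a pseudocount of 0.1, 3 with quantile normalization, 0 with no filter or with the replicate block, and 0 to 38 when 1 library was left out. Same-numbered libraries of the genotypes did not deviate together (correlations of -0.07, 0.06 and -0.01 for numbers 1, 2 and 3, against -0.14 to 0.13 for the other pairs), so the numbers were not read as pairs; the replicate block called Erap1 and H2-Q6 at an unadjusted p under 0.05. Of all genes at that p, 97.7% were higher, but 44.2% with median centring, 51.1% with quantile normalization and 53.2% with the length trend removed.

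Of the 25 named members, 5 kept their direction in every setting run for them and 20 did not, and the cause was not tested. The 5 were Erap1, H2-Q6, Ifi30 and Tapbp in 16 settings and Tap1 in 13, as it missed the filter in the other 3. Their fold changes smallest in size were 0.0054 for Erap1, 0.027 for Ifi30, 0.034 for Tapbp, -0.017 for Tap1 and -0.087 for H2-Q6. Median centring turned the log2 fold change of H2-Ke6 (-0.13), Tap2 (-0.022), H2-K1 (-0.21), H2-D1 (-0.22), H2-T22 (-0.069), H2-T23 (-0.16), H2-K2 (-0.28), H2-M3 (-0.16), H2-T24 (-0.12), H2-Aa (-0.25) and H2-DMa (-0.22). Quantile normalization turned the same 11, to -0.077, -0.021, -0.15, -0.16, -0.061, -0.16, -0.24, -0.10, -0.081, -0.26 and -0.18. Removing the length trend turned H2-K1 (-0.12), H2-D1 (-0.16), H2-T23 (-0.071), H2-K2 (-0.15), H2-M3 (-0.058), H2-T24 (-0.067), H2-Aa (-0.12) and H2-DMa (-0.12). Array weights turned H2-K1 (-0.23), H2-D1 (-0.071), H2-T23 (-0.13), H2-K2 (-0.16), H2-Q5 (-0.016), H2-Aa (-0.34) and H2-DMb1 (0.13). Median centring without WT replicate 3 turned H2-Ke6 (-0.074), Tap2 (-0.0040), H2-K1 (-0.33), H2-D1 (-0.21), H2-T22 (-0.096), H2-T23 (-0.20), H2-K2 (-0.29), H2-Q5 (-0.066), H2-M3 (-0.14), H2-T24 (-0.10), Ctss (-0.31), H2-Aa (-0.66) and H2-DMa (-0.20). Quantile normalization without it turned these but Tap2, to -0.079, -0.32, -0.20, -0.096, -0.19, -0.23, -0.028, -0.062, -0.039, -0.28, -0.66 and -0.15. Leaving out 1 library at a time gave -0.41 to 0.082 for B2m, -0.11 to 0.29 for H2-K1, -0.17 to 0.23 for H2-Q4, -0.75 to 0.025 for H2-Q7, -0.11 to 0.22 for H2-K2, -0.57 to 0.26 for Cd74, -0.087 to 0.78 for Ctss, -0.44 to 0.33 for H2-Aa, -0.64 to 0.17 for H2-Ab1, -0.59 to 0.13 for H2-Eb1, -0.082 to 0.23 for H2-DMa and -0.40 to 0.13 for H2-DMb1.

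With 3 mice a group, single members had a median standard error of 0.22 on the log2 scale. Genes near 1 TPM rest on few fragments, an estimated 15.0 to 36.8 for H2-M3 and H2-T24. The estimates were 7.95 to 39.8 for Nlrc5 and 1.14 to 11.4 for Ciita.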

Other observations

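The members lie among other genes of the MHC region. Of 77 tested genes between the first and last member on chromosome 17 that are not members, 58 were higher and 19 lower in homozygous muscle by value, with a median log2 fold change of 0.19, against 9526 higher and 1573 lower and a median of 0.26 over all 11099 genes. At an unadjusted p under 0.05, 14 were higher and 0 lower, against 23.7% and 0.55% of all genes, and the smallest adjusted p was 0.168 (limma).

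Of the 5 genes with the smallest p in this interval (Gabbr1, Ier3, Brd2, Hspa1l and Hspa1a), 3 are given here, picked after their values were seen. Gabbr1, a subunit of the GABA B receptor, measured 5.23, 6.88 and 5.58 TPM in homozygous and 3.26, 3.19 and 2.998 TPM in WT libraries, without overlap, a log2 fold change of 0.73 (SE 0.16). Ier3, an immediate early gene, measured 13.6, 29.1 and 22.6 TPM against 10.8, 7.08 and 4.39 TPM, also without overlap, a log2 fold change of 1.45 (SE 0.34). The heat shock gene Hspa1a measured 5.74, 11.9 and 4.53 TPM against 2.88, 3.24 and 1.46 TPM, with homozygous replicate 2 far above the others. The fold changes of Gabbr1, Ier3 and Hspa1a stayed above 0 without WT replicate 3 (0.70, 1.16 and 0.95) and with each library centred on its median (0.43, 1.14 and 0.89).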
